A study of Mus musculus with 12 samples.

Results

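The genes of major histocompatibility complex (MHC) class II antigen presentation were followed across 4 pools of hypothalamic RNA from adult male C57Bl/6J mice. The 7 members are the class II chain genes H2-Aa, H2-Ab1 and H2-Eb1, the invariant chain gene Cd74, the peptide loading gene H2-DMa, the class II transactivator gene Ciita and the cathepsin S gene Ctss. They were chosen by symbol from the platform annotation, each had 1 probe set that carries its symbol alone, and all 7 were among the 17186 genes tested. Mice were 21 weeks old, and 12 Affymetrix Mouse Gene ST arrays were hybridized, 3 per pool. ASP mice received aspartame, a dipeptide sweetener, in the drinking water from before birth and for life, at an estimated 46 mg/kg. ASP+CGP mice received aspartame in the same way and, during development, CGP 39551, which competes with glutamate at NMDA receptors (NMDAR) and was given to the dams at 5 mg/kg until postnatal day 28. CGP mice had this developmental antagonism without aspartame, and CON mice had neither. The hypothalamus was dissected as a block, with the optic chiasm and the mammillary bodies as its limits, from overnight-fasted mice that had gone through behavioral tests. Each group was represented by 1 pool of RNA from its mice, and its 3 arrays repeat that pool. P-values therefore measure the spread between arrays, not between mice, and treatment and pool cannot be told apart. The third ASP+CGP array and the third CON array deviated most from the means of their pools (SD of the deviation over genes 0.0996 and 0.0903, against 0.049 to 0.0701 on the other arrays).

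Class II molecules present peptides of ingested protein to CD4+ T cells. An alpha and a beta chain assemble in the endoplasmic reticulum on the invariant chain, which blocks the groove and directs the complex to endosomes. There cathepsin S trims the invariant chain to a short fragment, and H2-DM exchanges this fragment for peptide. CIITA does not bind DNA itself but is recruited by the RFX complex, CREB and NF-Y to the X and Y boxes of class II promoters. H2-Aa and H2-Ab1 encode the I-A molecule. H2-Eb1 encodes the beta chain of I-E, whose alpha chain gene is not expressed in C57BL/6 mice. In the brain, resting microglia carry little class II, and most of it is found on macrophages of vessels and meninges and on dendritic cells.

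The upstream sequences of 3 members are shown because H2-Aa and H2-Eb1 rose together in ASP mice and Ctss did not. Each run gives the 250 bases before the gene's start in RefSeq, build GRCm38.p6, 5′ to 3′ on the gene's strand. Capitals mark every match of GCAAC, letters that lie in class II X boxes, or of ATTGG, the Y box, on either strand (GTTGC and CCAAT on the other), and matches of the motifs share no overlapping letters here. The H2-Aa run is chr17:34287824-34288073 on the minus strand, the H2-Eb1 run is chr17:34305617-34305866 on the plus strand, and the Ctss run is chr3:95526536-95526785 on the plus strand.
H2-Aa: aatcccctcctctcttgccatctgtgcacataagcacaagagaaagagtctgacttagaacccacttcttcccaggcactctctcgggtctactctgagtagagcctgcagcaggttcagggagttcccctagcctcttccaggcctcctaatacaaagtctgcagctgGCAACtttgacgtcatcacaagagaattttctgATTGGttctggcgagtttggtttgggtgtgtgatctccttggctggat
H2-Eb1: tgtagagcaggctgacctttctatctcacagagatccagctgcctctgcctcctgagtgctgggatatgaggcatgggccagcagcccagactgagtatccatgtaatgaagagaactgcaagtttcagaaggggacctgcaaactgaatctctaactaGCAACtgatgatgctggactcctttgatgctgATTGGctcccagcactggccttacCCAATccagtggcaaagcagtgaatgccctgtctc
Ctss: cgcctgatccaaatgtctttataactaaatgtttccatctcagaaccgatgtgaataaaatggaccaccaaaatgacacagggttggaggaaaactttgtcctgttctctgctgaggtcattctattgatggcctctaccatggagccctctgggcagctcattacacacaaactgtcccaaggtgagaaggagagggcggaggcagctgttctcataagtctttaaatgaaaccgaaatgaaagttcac

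In the H2-Aa run 28 bases lie between GCAAC and ATTGG, and in the H2-Eb1 run 27 bases. The 250 bases of Ctss hold neither motif. Of all 32851 windows of this length, 33.8% held ATTGG, 29.9% held GCAAC and 1.15% held GCAAC followed on the same strand by ATTGG after 15 to 45 bases. The motifs and the gap were chosen after the sequences were seen. Windows were matched for 4 of the 7 members, namely H2-Aa, H2-Eb1, H2-DMa and Ctss. Of the H2-DMa windows, the first held only GCAAC and the second only ATTGG. The ordered motif was also found upstream of H2-Eb2, H2-Oa and H2-Ob, with 27, 28 and 25 bases between, and these genes were not differentially expressed in any comparison. The matches are a description of the letters and no evidence of binding.

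ASP mice had markedly higher transcripts of the class II chains and of the invariant chain than CON mice. Cd74, H2-Aa, H2-Ab1 and H2-Eb1 were upregulated, by 2.81-fold, 2.64-fold, 2.51-fold and 1.53-fold, whereas H2-DMa, Ciita and Ctss were not differentially expressed. Thus 4 of 7 members were called, at a limma adjusted p under 0.05 and a fold change over 1.4, against 1.05% of all genes tested (1.02% higher and 0.0291% lower). The median log2 fold change was 0.62 over the members and −0.01 over all genes tested. The members were chosen with earlier results of these data known, so comparisons with all genes, here and below, are descriptive. In bulk tissue, more cells of a type and more RNA per cell cannot be told apart. Marker genes of the adrenal cortex, adipose tissue and exocrine pancreas were higher in the same pool, with median log2 fold changes of 4.41, 2.58 and 1.56, and their part in the class II rise was not tested.

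Cd74 encodes the invariant chain. Its log2 signals were 9.41, 9.38 and 9.49 on the ASP arrays, 7.72, 7.67 and 7.67 on the ASP+CGP arrays, 7.98, 8.08 and 8.15 on the CGP arrays and 7.95, 7.89 and 7.98 on the CON arrays. All 3 ASP arrays stood above the other 9 arrays by at least 1.23, the ASP+CGP arrays lay below all others, and CGP arrays were just above CON arrays. The log2 fold change in ASP vs CON was 1.49 ± 0.05 (SE; adjusted p = 8.0e-11 in limma), the 44th highest of 17186 genes.

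H2-Aa, the I-A alpha chain gene, had signals of 9.36, 9.39 and 9.46 in ASP, 7.58, 7.50 and 7.66 in ASP+CGP, 8.07, 8.13 and 8.04 in CGP and 8.12, 7.97 and 7.93 in CON. The ASP arrays were again above all others and the ASP+CGP arrays below all others, while CGP and CON arrays overlapped. ASP exceeded CON by 1.401 ± 0.06 on the log2 scale (adjusted p = 9.4e-10 in limma), which ranked 48th.

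H2-Ab1, the partner beta chain gene, had signals of 9.10, 8.93 and 9.11 in ASP, 7.63, 7.57 and 7.41 in ASP+CGP, 7.87, 7.84 and 7.81 in CGP and 7.67, 7.68 and 7.81 in CON. Its arrays were ordered like those of H2-Aa, with the third CON array reaching the lowest CGP array. The log2 fold change in ASP vs CON was 1.33 ± 0.06 (adjusted p = 6.2e-09 in limma), which ranked 49th.

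H2-Eb1, the I-E beta chain gene, rose less. Its signals were 8.86, 8.74 and 8.82 in ASP, 7.99, 8.18 and 8.30 in ASP+CGP, 8.30, 8.28 and 8.09 in CGP and 8.03, 8.19 and 8.34 in CON. The ASP arrays were above the other 9 by at least 0.39, and the arrays of the remaining pools overlapped one another. The log2 fold change in ASP vs CON was 0.62 ± 0.09 (adjusted p = 6.4e-04 in limma, rank 134), with a 95% interval of 0.43 to 0.81 that lies below the intervals of Cd74 (1.38 to 1.60), H2-Aa (1.28 to 1.53) and H2-Ab1 (1.19 to 1.47). Of all genes tested, 751 (4.37%) had the 3 ASP arrays above the other 9, and 9.93% had them above the CON arrays, against 4 of 7 members in both cases.

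**Figure D1:**
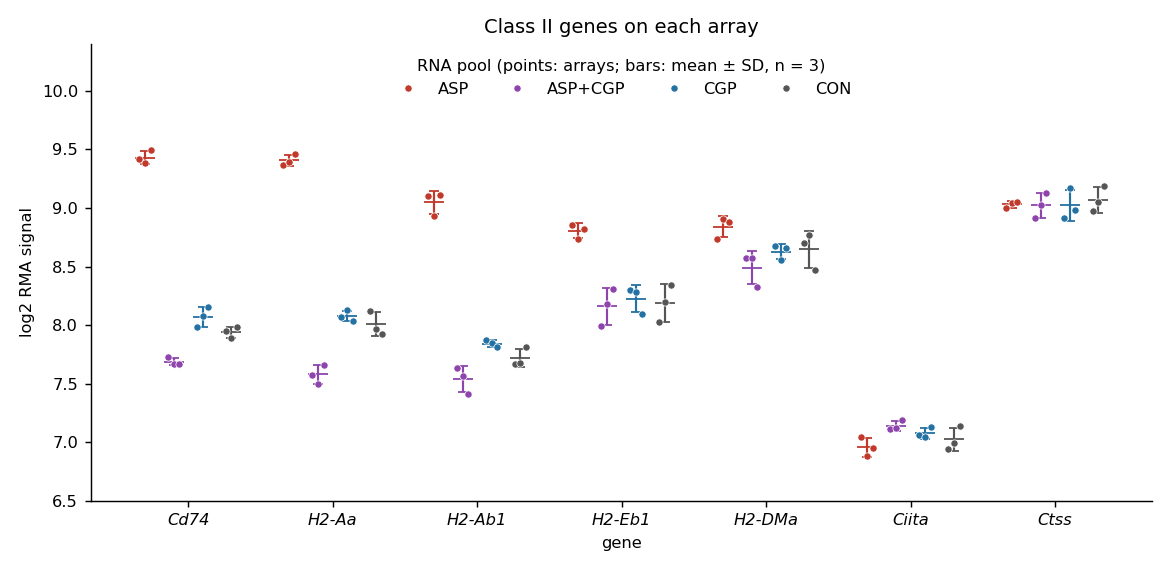
Log2 RMA signal (y axis) of the 7 class II genes (x axis), shown by array for the ASP, ASP+CGP, CGP and CON pools; points are arrays and bars are mean ± SD of 3 arrays. The ASP arrays of Cd74, H2-Aa, H2-Ab1 and H2-Eb1 stand above the other 9 arrays, with a Cd74 mean of 9.43 in ASP and 7.94 in CON, while Ctss arrays lie between 8.91 and 9.19 in all pools.

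The members that process or load peptide, and the transactivator, were not called in ASP vs CON. H2-DMa differed less than the chain genes but in the same direction. H2-DMa, the alpha subunit of the peptide exchange factor, had signals of 8.74, 8.90 and 8.88 in ASP, 8.57, 8.57 and 8.33 in ASP+CGP, 8.68, 8.55 and 8.65 in CGP and 8.70, 8.77 and 8.47 in CON. The ASP arrays lay above the ASP+CGP and the CGP arrays but overlapped the CON arrays. Its log2 difference in ASP vs CON was 0.19 ± 0.08 (adjusted p = 0.25 in limma), with a 95% interval of 0.02 to 0.37.

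Ciita, the master coactivator of class II transcription, had signals of 7.04, 6.88 and 6.95 in ASP, 7.11, 7.12 and 7.19 in ASP+CGP, 7.06, 7.04 and 7.13 in CGP and 6.95, 6.99 and 7.14 in CON. The ASP arrays held the lowest mean and lay below the ASP+CGP arrays, but overlapped CON. ASP minus CON was −0.07 ± 0.06 (adjusted p = 0.61 in limma), with a 95% interval of −0.19 to 0.06. These signals lie close to the filter level of 6, and array signals understate differences of genes near background.

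Ctss, the lysosomal protease that trims the invariant chain and is abundant in microglia, had signals of 8.999, 9.04 and 9.05 in ASP, 8.91, 9.02 and 9.13 in ASP+CGP, 8.92, 9.17 and 8.98 in CGP and 8.97, 9.05 and 9.19 in CON. The 4 pools overlapped throughout. The log2 difference in ASP vs CON was −0.04 ± 0.07 (adjusted p = 0.84 in limma), and its 95% interval of −0.20 to 0.12 excludes the rise seen for the chain genes.

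**Figure D2:**
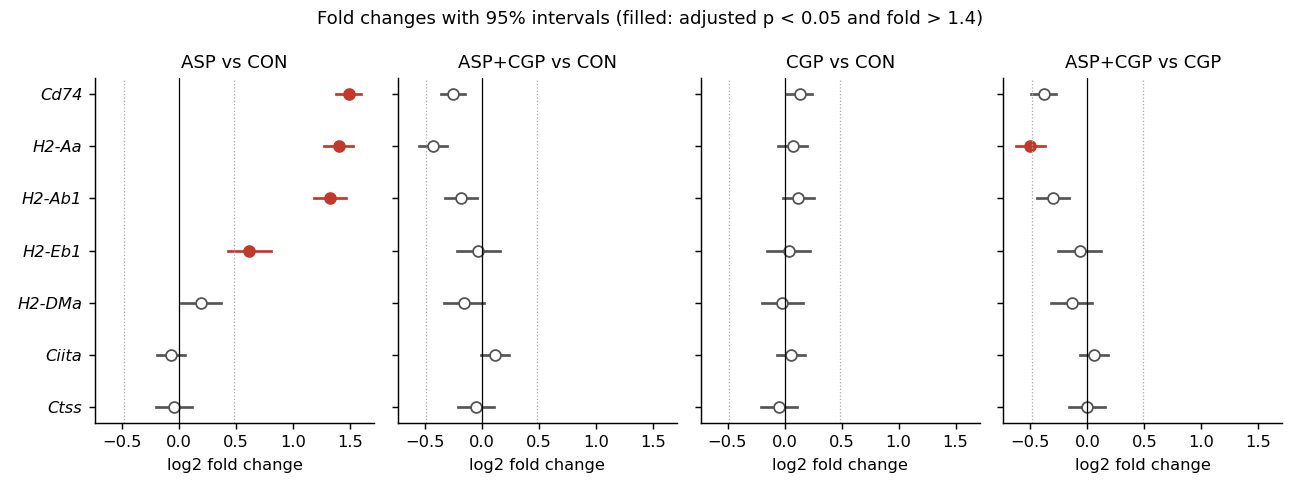
Log2 fold change (x axis) of each class II gene (y axis) in ASP vs CON, ASP+CGP vs CON, CGP vs CON and ASP+CGP vs CGP; lines are 95% intervals, filled points passed an adjusted p under 0.05 and a fold change over 1.4, and dotted lines mark that fold. In ASP vs CON 4 of 7 genes are filled, led by Cd74 at 1.49, and in ASP+CGP vs CGP only H2-Aa is filled, at −0.50.

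No class II gene was differentially expressed in mice with developmental NMDAR antagonism alone. In CGP vs CON 0 of 7 members were called by limma (0.111% of all genes tested were), 1 member, Cd74, had an unadjusted p under 0.05 (11.6% of all genes tested), and the median over the members was 0.05. The largest difference was that of Cd74, at 0.13 ± 0.05 (adjusted p = 0.32 in limma, 95% interval 0.02 to 0.24). Its CGP arrays all lay above the CON arrays, as they did for 12.0% of all genes tested. Those of H2-Ab1 and H2-Aa were 0.12 ± 0.06 and 0.07 ± 0.06, and the arrays of H2-Aa, H2-Ab1, H2-Eb1, H2-DMa, Ciita and Ctss overlapped between the pools.

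In ASP+CGP mice the rise of the class II genes was missing, and Cd74 and H2-Aa lay slightly below CON. No member passed both criteria in ASP+CGP vs CON (0 of 7 in limma, against 0.18% of all genes tested), whereas 3 members had an unadjusted p under 0.05 (15.4% of all genes tested). H2-Aa differed by −0.43 ± 0.06 on the log2 scale (adjusted p = 0.0015 in limma), a 1.34-fold difference that is under the fold threshold. Cd74 differed by −0.25 ± 0.05 (adjusted p = 0.023 in limma). An adjusted p under 0.05 with a lower signal, at any fold, was reached by these 2 of 7 members and by 0.919% of all genes tested. For H2-Ab1 the value was −0.18 ± 0.06 (adjusted p = 0.20 in limma), with all ASP+CGP arrays below the CON arrays, as for 10.2% of all genes tested. H2-Eb1 was at −0.03 ± 0.09 and Ciita at 0.11 ± 0.06, with overlapping arrays. Without the third ASP+CGP and the third CON array, H2-Aa was at −0.51 and was called, and Cd74 was at −0.22 (adjusted p = 0.063 in limma).

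Relative to CGP mice, which share the developmental antagonism but not aspartame, ASP+CGP mice had lower H2-Aa. This comparison was added after the values were seen. Among the members, 1 of 7 was called (0.163% of all genes tested, 0.134% lower), H2-Aa at −0.50 ± 0.06 (adjusted p = 6.5e-04 in limma), a 1.41-fold decrease that just passed the fold threshold. Cd74 was at −0.38 ± 0.05 and H2-Ab1 at −0.30 ± 0.06 (adjusted p = 0.0017 and 0.044 in limma), below the fold threshold, so that 3 of 7 members were lower at an adjusted p under 0.05 alone (0.658% of all genes tested). All ASP+CGP arrays lay under the CGP arrays for these 3 genes, as for 14.8% of all genes tested. The H2-Aa call was lost without the second CGP array (−0.47), without the second ASP+CGP array (−0.46), after further quantile normalization (−0.48) and with array medians equalized (−0.47).

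The direct comparison of ASP with ASP+CGP mice gave the widest separation. In ASP vs ASP+CGP, 4 of 7 members were called, all higher in ASP (1.27% of all genes tested were called, 1.24% higher). H2-Aa was 3.55-fold higher in ASP mice, Cd74 3.35-fold, H2-Ab1 2.85-fold and H2-Eb1 1.57-fold. H2-DMa was 1.28-fold higher (0.35 ± 0.08, adjusted p = 0.019 in limma), under the fold threshold, so that 5 of 7 members were higher at an adjusted p under 0.05 alone (4.25% of all genes tested). All ASP arrays lay above the ASP+CGP arrays for these 5 members, as for 12.3% of all genes tested. Ciita had the opposite sign, at −0.18 ± 0.06 (adjusted p = 0.079 in limma), with all ASP arrays below the ASP+CGP arrays, as for 14.6% of all genes tested. Ctss was at 0.01 ± 0.07, with a 95% interval of −0.15 to 0.17. This comparison shares the ASP arrays with ASP vs CON.

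The interaction is the ASP+CGP minus CGP difference less the ASP minus CON difference. With 1 pool per group it sets differences between pools against the spread between arrays, and cannot show how aspartame acted in mice. It was called for 4 of 7 members (1.5% of all genes tested, 1.35% negative). The values were −1.90 ± 0.08 for H2-Aa, −1.87 ± 0.07 for Cd74, −1.63 ± 0.09 for H2-Ab1 and −0.68 ± 0.12 for H2-Eb1, with adjusted p-values of 1.7e-09, 3.9e-10, 3.5e-08 and 0.0056 in limma. H2-DMa (−0.33 ± 0.12, adjusted p = 0.15), Ciita (0.13 ± 0.08, adjusted p = 0.43) and Ctss (0.04 ± 0.10, adjusted p = 0.87) did not pass in limma. The call for H2-Eb1 was lost without moderation of the spread (adjusted p = 0.054).

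The mean signals of Cd74, H2-Aa, H2-Ab1 and H2-Eb1 ran ASP, CGP, CON and ASP+CGP from high to low. Of the neighbours in that order, the arrays of ASP and CGP were apart for each of these genes. Of all genes tested, 4.37% had the ASP arrays above the other 9. Those of CGP and CON were apart only for Cd74 (CGP above CON in 12.0% of all genes tested). Those of CON and ASP+CGP were apart for Cd74, H2-Aa and H2-Ab1 (ASP+CGP below CON in 10.2%). How many genes had the ASP+CGP arrays below all other arrays was not counted. For H2-DMa the order was ASP, CON, CGP and ASP+CGP, and all neighbours overlapped. Ciita ran the other way, with ASP+CGP highest and ASP lowest, and Ctss had CON highest, again with all neighbours overlapping.

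None of the other genes of the class II pathway was differentially expressed. Of 23 listed symbols 18 were tested, and 0 were called in ASP vs CON by limma, with a median of 0.01 and a range of −0.12 to 0.15. Of all genes tested 1.05% were called in ASP vs CON, so a list this short would hold few calls. Among the remaining class II chain genes, H2-Oa and H2-Ob, which form an inhibitor of H2-DM in B cells, were at 0.02 ± 0.05 and −0.12 ± 0.05, and H2-Eb2 was at 0.07 ± 0.07. The RFX subunit genes Rfx5, Rfxap and Rfxank, which bind the X box, were at −0.06, −0.01 and 0.09. The NF-Y subunit genes Nfya, Nfyb and Nfyc, which bind the Y box, were at 0.10, −0.01 and 0.03, and Creb1 was at −0.08. Thus the genes of the DNA-binding partners of CIITA moved by at most 0.10 in either direction in ASP vs CON. Of the endosomal enzymes, the thiol reductase gene Ifi30 was at 0.11, the legumain gene Lgmn at −0.08, and the cathepsin genes Ctsb, Ctsd and Ctsl at 0.07, 0.01 and −0.05. Marchf1, a ubiquitin ligase that removes class II from the surface, was at −0.12, and the costimulatory genes Cd40 and Cd80 were at 0.04 and 0.15. In ASP vs ASP+CGP, Ifi30 was at 0.27 ± 0.06 (adjusted p = 0.017 in limma), under the fold threshold. Some partner genes of CIITA moved more in other comparisons, without a call. Rfxank was at 0.16 ± 0.06 in ASP vs ASP+CGP and −0.23 ± 0.08 in the interaction (adjusted p = 0.13 and 0.18 in limma). Creb1 was at 0.19 ± 0.07 in the interaction and Rfx5 at −0.15 ± 0.05 in ASP+CGP vs CON (adjusted p = 0.17 and 0.14 in limma). In CGP vs CON and in ASP+CGP vs CON the same list had 0 calls in limma (0.111% and 0.18% of all genes tested were called) and medians of −0.01 and −0.02.

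The measured genes next to the class II chain genes were not differentially expressed in ASP vs CON. On chromosome 17, 5 other measured genes lie between H2-DMa and H2-Eb1 in the reference order, namely Psmb9, Tap1, Psmb8, Tap2 and H2-Ob, and 0 of these 5 were called in ASP vs CON, with values from −0.12 to 0.12. These include Tap1 and Tap2, which pump peptides to class I molecules (0.11 and −0.01), and the immunoproteasome genes Psmb8 and Psmb9 (0.12 and 0.02). Of the 10 measured genes on each outer side, 20 in all, 0 were called, with a range of −0.16 to 0.12. H2-Ab1, H2-Aa and H2-Eb1 follow each other directly in this order, at 1.33, 1.401 and 0.62. The background for these counts is the 1.05% of all genes tested given above.

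**Figure D3:**
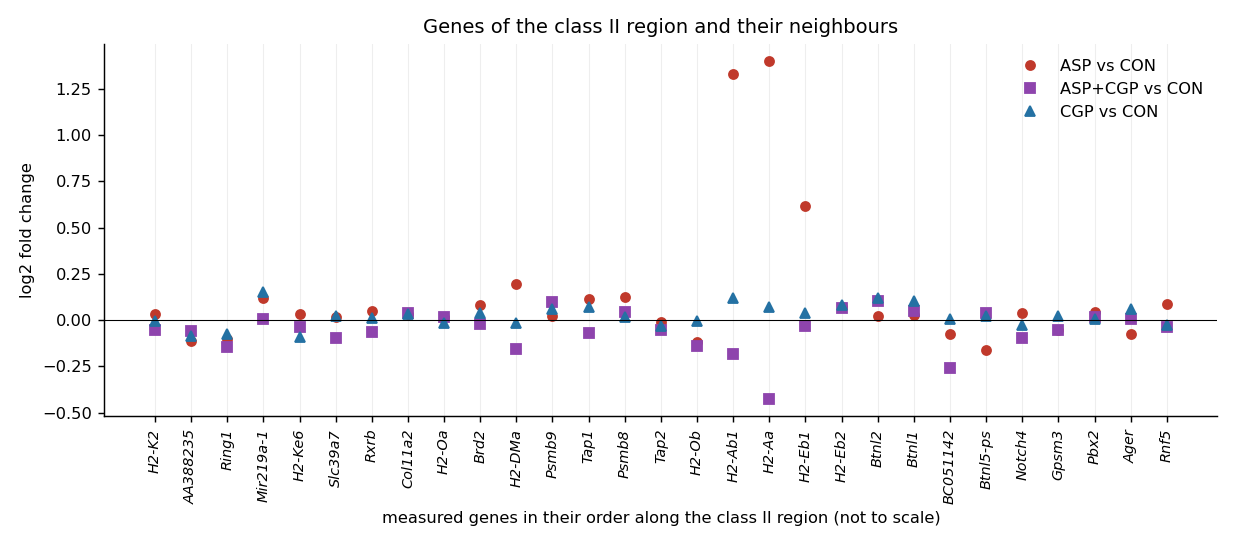
Log2 fold change relative to CON (y axis) of 29 measured genes in their order along the class II region of chromosome 17 (x axis, not to scale) in ASP, ASP+CGP and CGP mice. H2-Ab1, H2-Aa and H2-Eb1 stand out in ASP mice at 1.33, 1.401 and 0.62, the other genes between and beside them lie within −0.16 to 0.19 in ASP mice, and H2-Aa is the lowest point in ASP+CGP mice at −0.43.

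Genes of class I presentation and of the interferon gamma response, a pathway that induces class II in many cells, showed no differential expression in ASP vs CON. In this comparison 1.05% of all genes tested were called by limma, so lists this short would hold few calls. Of 19 class I pathway genes tested 0 were called by limma (median 0.02), and of 14 interferon gamma genes 0 were called (median 0.02). All ASP arrays lay above all CON arrays for 4 class I and 4 interferon gamma genes, and for 9.93% of all genes tested. They lay below for 2 class I genes and 1 interferon gamma gene. At any fold, 702 of 17186 genes had an adjusted p under 0.05. Across both lists 3 genes did, all below the fold threshold, and these 3 were singled out after their values were seen. They were H2-Q4, a class I chain gene (0.38 ± 0.08, adjusted p = 0.010 in limma), Tapbp, the tapasin gene of class I loading (0.27 ± 0.06, adjusted p = 0.021), and Ifng itself (0.22 ± 0.06, adjusted p = 0.045). The Ifng signal averaged 6.87 in ASP and 6.65 in CON. It was above CON by a like amount in CGP (0.18 ± 0.06, adjusted p = 0.23 in limma) and in ASP+CGP (0.205 ± 0.06, adjusted p = 0.092 in limma). In ASP vs ASP+CGP Ifng was at 0.01 ± 0.06, unlike the class II chain genes. The class I light chain gene B2m was at 0.25 ± 0.07 (adjusted p = 0.062 in limma), and the interferon target genes Irf1, Cxcl9 and Cxcl10 were at −0.12, 0.15 and 0.11.

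In ASP vs ASP+CGP, 1 of 19 class I pathway genes was called, against 1.27% of all genes tested. H2-Q4 was 1.43-fold higher in ASP mice (0.51 ± 0.08, adjusted p = 7.7e-04 in limma), and it was also called in the interaction (−0.51 ± 0.11, adjusted p = 0.017 in limma), with the sign seen for the class II chain genes. Its mean signal was 7.47 in ASP, 6.95 in ASP+CGP, 7.08 in CGP and 7.09 in CON. Tapbp was at 0.40 ± 0.06 in ASP vs ASP+CGP and −0.46 ± 0.09 in the interaction (adjusted p = 8.2e-04 and 0.0073 in limma), under the fold threshold in both. B2m was at 0.28 ± 0.07 in ASP vs ASP+CGP (adjusted p = 0.023 in limma), also under the fold threshold, and at −0.18 ± 0.10 in the interaction (adjusted p = 0.36). Canx, the gene of the chaperone calnexin, had the opposite sign in ASP vs ASP+CGP (−0.15 ± 0.04, adjusted p = 0.046 in limma).

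No gene of the immune cell lists was differentially expressed in ASP vs CON. In ASP vs CON 0 genes were called by limma among 8 of dendritic cells (median −0.04), 7 of B and plasma cells (0.05), 8 of T and NK cells (0.04), 14 of macrophages outside the brain parenchyma (0.07), 16 of microglia (0.00) and 9 of leukocytes in general (0.05). Of all genes tested 1.05% were called, and at that share lists this short would hold few calls. The dendritic cell integrin gene Itgax was at 0.05 ± 0.05, the B cell receptor gene Cd79a at 0.08 ± 0.10, the macrophage receptor gene Mrc1 at 0.01 ± 0.07 and the pan-leukocyte gene Ptprc at 0.05 ± 0.05. Several of these signals lie near the filter level, with Mrc1 at 6.36 in ASP and 6.35 in CON and Cd79a at 6.31 in ASP and 6.23 in CON, so small differences may be understated. Ms4a7, a macrophage gene singled out after its values were seen, was at 0.38 ± 0.10 (adjusted p = 0.043 in limma). Its signals averaged 6.19 in ASP, 5.81 in CON, 5.73 in CGP and 5.72 in ASP+CGP. Only the ASP mean reached the filter level of 6, so Ms4a7 could enter the test through the ASP arrays alone. For 0 of 8 dendritic cell, 0 of 7 B and plasma cell and 0 of 8 T and NK cell genes did all ASP arrays lie above all CON arrays. They lay below them for 1 T and NK cell gene, Zap70. All ASP arrays lay above all CON arrays for 3 of 14 macrophage genes, 2 of 16 microglial genes and 3 of 9 general leukocyte genes, and for 9.93% of all genes tested. Beside Ms4a7 these were Cd209g (0.17 ± 0.07) and Adgre1 (0.11 ± 0.04) of macrophages, C1qb (0.16 ± 0.06) and Olfml3 (0.15 ± 0.05) of microglia, and the leukocyte genes Cd52 (0.29 ± 0.10), Fcer1g (0.11 ± 0.05) and Spi1 (0.10 ± 0.05), with adjusted p-values of 0.11 to 0.28 in limma for these 7 genes. In ASP vs ASP+CGP, Ms4a7 was at 0.47 ± 0.10 and Olfml3 at 0.19 ± 0.05 (adjusted p = 0.0078 and 0.032 in limma), under the fold threshold. Of all genes tested 4.25% were higher at an adjusted p under 0.05 there. Cd4 of the T and NK list went the other way, at −0.21 ± 0.05 (adjusted p = 0.014 in limma), also under the fold threshold. The part of these transcripts in the class II rise was not tested. Of the microglial genes, 15 of 16 had a signal of 7 or more on at least 1 array, and Aif1 averaged 6.58 in ASP and 6.60 in CON. The microglial list had a summed log2 signal of 13.25 to 13.29 on ASP arrays and 13.19 to 13.26 on CON arrays. P2ry12 (0.00 ± 0.05), Tmem119 (−0.01 ± 0.04) and Cx3cr1 (−0.01 ± 0.05), which mark resting microglia, and the phagocyte receptor gene Csf1r (0.02 ± 0.05) did not pass.

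Transcripts of tissues outside the brain did move with the class II genes. In ASP vs CON, 9 of 9 tested genes of the adrenal cortex list, 9 of 9 of the adipose list and 8 of 8 of the exocrine pancreas list were called higher. Of all genes tested 1.02% were. Hsd3b1, Mc2r, Adipoq, Fabp4, Cpb1 and Zg16 averaged under the filter level of 6 in each of the other pools. Such genes could enter the test through the ASP arrays alone, so these counts are descriptive. The summed log2 signal of the adrenal cortex list was 14.27 to 14.29 on ASP arrays, 10.30 to 10.34 on ASP+CGP arrays, 10.33 to 10.38 on CGP arrays and 10.30 to 10.35 on CON arrays. That of the adipose list was 12.84 to 12.89 on ASP arrays and 10.51 to 10.61 on the other 9. That of the pancreas list was 11.89 to 11.92 on ASP arrays and 9.84 to 9.98 on the other 9.

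Pituitary genes differed in every pool. Their summed log2 signal was 15.17 to 15.18 in ASP, 12.07 to 12.27 in ASP+CGP, 15.001 to 15.03 in CGP and 14.14 to 14.21 in CON. This order of pools is the one seen for Cd74, H2-Aa, H2-Ab1 and H2-Eb1, including the place of ASP+CGP below CON, and its part in the class II values was not tested. In CGP vs CON 7 of 8 pituitary genes were called higher (median 0.87), against 0.111% of all genes tested in either direction. No class II gene was called there, and at that share a list this short would hold few calls. The adrenal, adipose and pancreas lists had 0 calls in ASP+CGP vs CON by limma (0.18% of all genes tested were called), with medians of 0.07, 0.05 and 0.08. Of the hypothalamic markers 18 of 19 were tested, and their median signal was 10.30 in ASP, 9.95 in ASP+CGP, 10.30 in CGP and 10.53 in CON. Pomc is on both this list and the pituitary list, with means of 11.79 in ASP, 9.21 in ASP+CGP, 11.47 in CGP and 10.88 in CON. It lay above the middle of the list in the other pools and below it in ASP+CGP, so the lower ASP+CGP median depends on this gene.

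**Figure D4:**
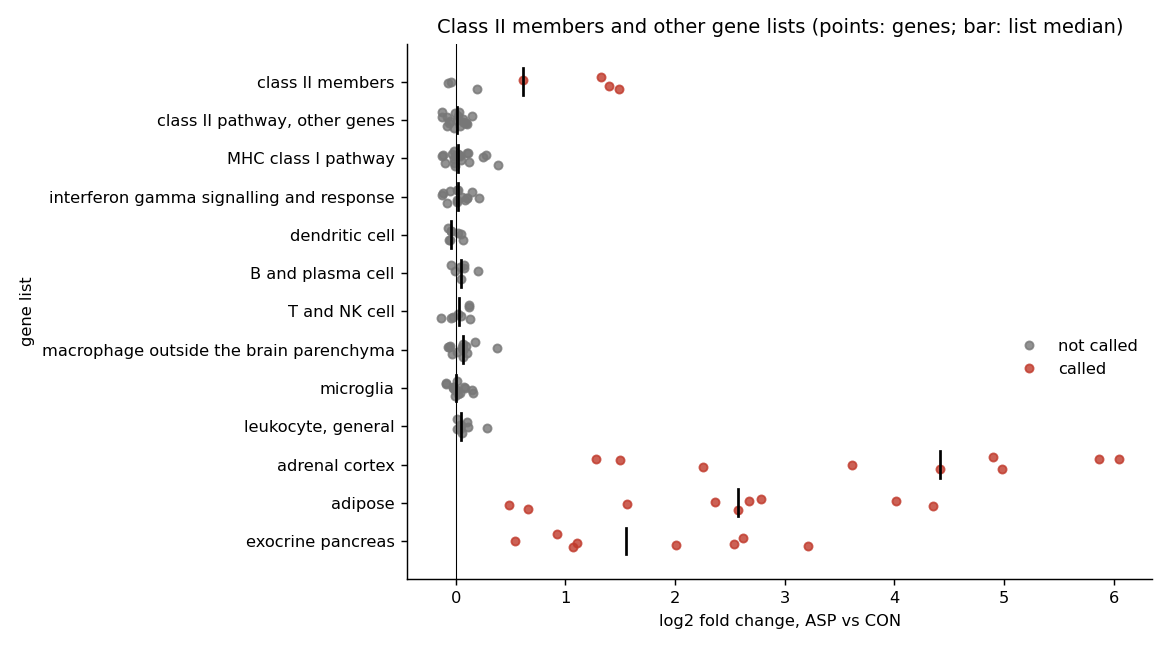
Log2 fold change in ASP vs CON (x axis) of the genes of each list (y axis); points are genes, red where called, and black bars are list medians. The class II members spread from −0.07 to 1.49, the lists of other class II pathway, class I, interferon and immune cell genes lie within −0.13 to 0.38 without a call, and the adrenal cortex, adipose and pancreas lists lie at medians of 4.41, 2.58 and 1.56.

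The genes outside all lists whose pattern was most like that of Cd74, by Euclidean distance over the 3 log2 fold changes against CON, were Akr1b8, Pcolce, Agpat2, Hsd3b6 and Dpep1. Akr1b8, an aldo-keto reductase gene, was at a distance of 0.16, with 1.42 in ASP, −0.17 in ASP+CGP and 0.02 in CGP. Pcolce, an enhancer of procollagen processing, was also at 0.16, with 1.63 in ASP, −0.20 in ASP+CGP and 0.07 in CGP. Agpat2, an acyltransferase gene of triglyceride synthesis, Hsd3b6, a 3 beta-hydroxysteroid dehydrogenase gene, and Dpep1, a dipeptidase gene, were at 0.26, 0.30 and 0.30. Of the listed genes, H2-Ab1 and H2-Aa were nearest to Cd74, at 0.18 and 0.21, followed by Cyp11b2, the aldosterone synthase gene of the adrenal list, at 0.28. Each distance rests on 4 pool means and shares the CON arrays.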

How the data were processed

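Pooled RNA of 4 groups was hybridized in triplicate. The authors deposited RMA values from Partek on the log2 scale (perfect match probes, background correction, quantile normalization, median polish). This scaling removes changes shared by most genes, and background compresses the fold changes of dim ones. Genes were taken from GEO's platform annotation, in which 19019 of 29149 probe sets carried a single symbol, 1197 several and 8933 none, and only the single-symbol ones were named. A probe set had to reach 6 on 3 or more arrays (18810 did), and the brightest represented its gene, giving 17186 genes.

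A limma 3.58.1 model (R 4.3.3, lmFit and eBayes) with 1 mean per pool was fitted to all 12 arrays, corresponding to the study's ANOVA and contrasts. DEGs had a Benjamini-Hochberg adjusted p under 0.05, over the 17186 genes of a contrast, and a fold change over 1.4. Exact permutation of 3 against 3 arrays reaches no p under 0.1 and was not used. Array medians were 8.28 to 8.34, and the number of arrays limits the precision. Values after ± are SEs unless named SD.

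Named genes were the members, the measured class II pathway genes, up to 4 called genes per list and the 5 unlisted genes nearest to Cd74. Markers given without a call, and any gene said to be singled out, fall outside this rule and were chosen after their values were seen. The members and lists were chosen with earlier results of these data known. Alternatives covered filters, probe sets, normalization, moderation, adjustment, fold thresholds, a replicate block and arrays left out. The fit was tested on simulated data. Promoters came from RefSeq (GRCm38.p6).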

Additional observations from a re-analysis of the deposited data

Results flagged for a closer look

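The effect of aspartame differed between the pools with and without developmental NMDAR antagonism for 4 class II genes, by the interaction term of the limma fit. The effect with CGP 39551 less the effect without it was −1.87 for Cd74, −1.90 for H2-Aa, −1.63 for H2-Ab1 and −0.68 for H2-Eb1 on the log2 scale. Without the antagonist (ASP vs CON) these genes differed by 1.49, 1.401, 1.33 and 0.62, with all ASP arrays above all CON arrays, and with it (ASP+CGP vs CGP) by −0.38, −0.50, −0.30 and −0.07. The adjusted p-values of the interaction over the alternatives run were 7.2e-11 to 2.7e-06 for Cd74, 2.9e-10 to 9.6e-06 for H2-Aa, 8.2e-09 to 6.7e-05 for H2-Ab1 and 4.2e-04 to 0.054 for H2-Eb1. Each effect rests on 1 pool per group.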

How the results depend on the processing

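The 42 member results were recomputed under 29 alternatives, which gave 1218 values. Of these, 1169 kept direction and side of the thresholds, 9 lost a call, 10 gained one and 30 changed sign. Several alternatives could not change a member's fold change, so the number kept overstates how far the results were tested. Each member had 1 probe set, the fold thresholds reused the main fit, and arrays of pools outside a contrast affect only its spread. None of the 13 results called in the main analysis changed sign, and no value that changed sign had an adjusted p under 0.05. In ASP vs CON 4 members were called under every alternative except a fold change over 2 (3 members).

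In ASP+CGP vs CON, where 0 members were called, 1 was called at a fold change over 1.2, 2 were called with no fold threshold and 1 was called with the third ASP+CGP and the third CON array left out together. In ASP+CGP vs CGP the 1 call became 0 after further quantile normalization, 0 with array medians equalized and 0 at a fold change over 2, and became 3 at a fold change over 1.2 and 3 with no fold threshold. Leaving out single arrays gave 0 to 1 calls there. The ASP+CGP vs CGP comparison was chosen after seeing the data.

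The sign of Ctss depended on the scaling in ASP vs ASP+CGP (−0.017 after quantile normalization, −0.012 with medians equalized) and in ASP+CGP vs CGP (0.026 and 0.024 under these settings). With the third arrays left out it was 0.020 in ASP vs CON, 0.011 in CGP vs CON and −0.075 in the interaction, and with a batch term for them 0.017, 0.0085 and −0.075. The cause was not tested. With single arrays left out Ctss ranged over −0.090 to 0.020 in ASP vs CON, −0.122 to 0.011 in CGP vs CON, −0.104 to 0.010 in ASP+CGP vs CON, −0.046 to 0.064 in ASP vs ASP+CGP, −0.055 to 0.072 in ASP+CGP vs CGP and −0.021 to 0.112 in the interaction. H2-Eb1 ranged over −0.044 to 0.115 in CGP vs CON, −0.110 to 0.053 in ASP+CGP vs CON and −0.139 to 0.016 in ASP+CGP vs CGP, and H2-DMa over −0.106 to 0.043 in CGP vs CON.

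Counts of DEGs in ASP vs CON, ASP vs ASP+CGP, ASP+CGP vs CGP, ASP+CGP vs CON, CGP vs CON and the interaction were 180, 219, 28, 31, 19 and 257, against 72, 74, 8, 5, 5 and 86 at a fold change over 2, 425, 599, 124, 158, 84 and 644 over 1.2, and 702, 1189, 168, 300, 108 and 690 with no fold threshold. Including probe sets with several symbols or none gave 61 in ASP+CGP vs CGP and 63 in ASP+CGP vs CON. Arrays with the same replicate number deviated together in only part of the cases (r of −0.106 to 0.541), so the numbers do not pair the arrays. With a replicate block the members called stayed at 4, 4, 1, 0, 0 and 4 in the order of contrasts above, and DEGs numbered 180, 221, 31, 32, 20 and 259.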
